A study of Arabidopsis thaliana with 12 samples.

Results

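The genes described here are those of the Arabidopsis thaliana mitochondrial genome, taken as all rows of the gene count table whose identifier begins with ATMG, which the table places on chromosome M. They make up 162 of the 37813 genes in the table, and 49 of them reached 5 reads or more in 3 or more of the 12 samples and were tested. The study compared jac1 plants with wild-type plants after a UV-C exposure and without it, since JAC1, a J-domain protein needed for chloroplast movements, was examined for a role in the response to photooxidative stress. RNA of whole rosettes was selected by its poly-A tail and sequenced. There were 4 groups of 3 samples. UV-C treated jac1 and UV-C treated wild type were harvested 30 min after a dose of 100 mJ per cm2. Non-treated jac1 and non-treated wild type received no UV-C. All plants were 4 weeks old and grown under short days, and both genotypes carry the gl1 mutation, because jac1-1 was compared with its parental line Col-0 gl1. Each sample pooled at least 4 rosettes, jac1 was represented by a single allele, and the study's methods call the 3 samples of a group biological replicates.

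Plant mitochondrial genomes encode subunits of the respiratory chain complexes and of ATP synthase, proteins of cytochrome c maturation, a part of the mitochondrial ribosome and its RNAs, while nuclear genes supply the other subunits. Mature plant mitochondrial mRNAs and rRNAs carry no stable poly-A tail, and in this organelle a poly-A tail is known to mark RNA for degradation by exonucleases. A library selected for poly-A tails therefore samples mitochondrial RNA through a minor and unstable fraction, or through carry-over of RNA without tails, and the measured levels are not levels of the whole transcript pool.

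The table gives no gene names. Names were given by matching the 162 loci to the mitochondrial genes of the RefSeq annotation (assembly TAIR10.1) by exon length and spacing, which named 57 loci, 17 of them tRNA genes. Of the 49 loci with enough reads 24 had a name and 25 had none, and those without one are called by their identifier. Of the 113 loci that did not pass, 88 had no read in any sample and 25 had between 1 and 17 reads in all 12 samples together. None of the 17 tRNA loci passed, and the highest had 9 reads in all. A count of 0 allows up to 3 reads, which corresponds to 0.0623 to 0.165 CPM (reads scaled by TMM to a common library size) across the samples; such limits, like all counts here, cover counting error only.

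Which genes had reads went together with how much of their sequence is found only once in the genome. A copy of most of the mitochondrial genome lies in the nucleus, on chromosome 2, where a stretch of 270728 bases (chr2:3239038-3509765) shares 94% of its 76-base windows, the read length, with the mitochondrial genome. Over the whole mitochondrial genome, 68.93% of the windows also occur on nuclear chromosomes. The start of cox3, a subunit of cytochrome c oxidase, is shown as an example because it is the same in both places. On chromosome 2 it is read from chr2:3312576-3312651 of TAIR10.1 on the minus strand, within AT2G07687, with the start codon in capitals.
cox3, first 76 bases: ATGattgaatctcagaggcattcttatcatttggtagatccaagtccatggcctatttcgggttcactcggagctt
By default the counting program leaves out reads that align to several places. cox3 (ATMG00730) had 2 reads in all 12 samples. AT2G07687, none of whose windows is found on chromosome 2 alone, was nevertheless counted at 28 to 44 reads in each UV-C treated sample. Whether shared sequence accounts for the low count of cox3 was not tested.

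Among 37 named loci other than tRNA genes for which windows could be taken, all 13 with at least 50% of their windows found once passed the read filter, with 335 to 418049 reads over the 12 samples. Of 8 loci with fewer unique windows, 6 passed. Of 16 loci with no unique window, 3 passed, namely both nad2 loci (ATMG00285 and ATMG01320) and nad4 (ATMG00580), with 87, 225 and 42 reads. Genes of central function that did not pass the filter include cob, the mitochondrial subunit of complex III with 1 read, cox3, nad3, nad6, atp1, atp8, rpl5, rps4, rps7 and rps12. The mitochondrial sequence of the RefSeq assembly is another one than that of the count table, so these window shares describe the RefSeq genes.

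**Figure D1:**
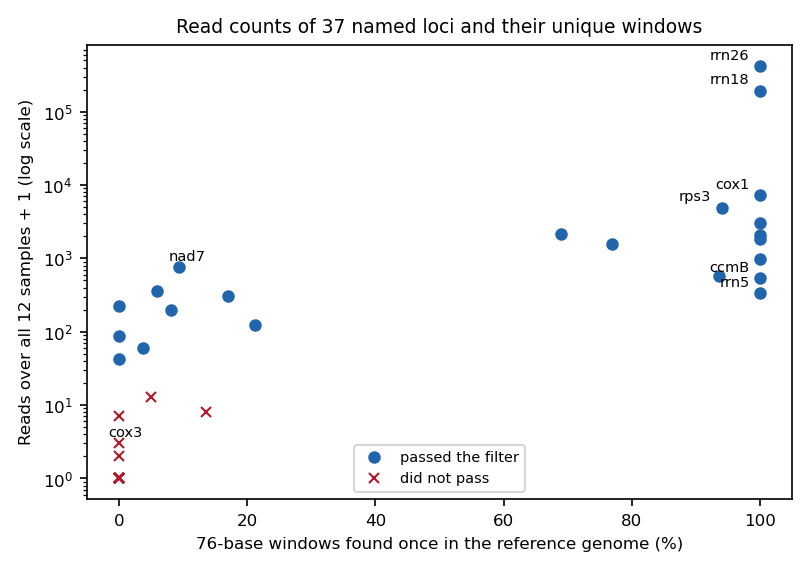
Reads over all 12 samples plus 1 (log scale) against the percentage of 76-base windows found once in the RefSeq genome, for 37 named mitochondrial loci; circles passed the read filter and crosses did not. All 13 loci at 50% or more lie at 335 reads or higher, and 3 of the 16 loci at 0% passed.

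Counted reads per sample ran from 21939540 to 27194762 in UV-C treated jac1 and from 20897905 to 24461667 in UV-C treated wild type, against 33999174 to 39098227 in non-treated jac1 and 34496078 to 40445085 in non-treated wild type, so the counted totals differed with the treatment. Reads that were sequenced but not counted on a gene are not in these totals. JAC1 (AT1G75100) RNA was not lower in jac1: it averaged 166 CPM in jac1 and 137 CPM in wild type after UV-C, and 145 CPM in jac1 and 89.7 CPM in wild type without it, so its level does not check the genotype label. Green leaf markers were abundant in every group, with RBCS1A means between 14654 and 17903 CPM, while the root markers EXPA7 and LRL3 had 0 to 2 reads per sample and the flower markers AG and AP3 0 to 23 reads. AP3 was called lower in jac1 under both treatments, and the light-harvesting genes LHCB1.2 and LHCA1 were called higher in jac1 under both. LHCB1.2 and LHCA1 were also called higher after UV-C, with log2 FC of 1.94 and 1.96 in jac1 and 2.10 and 1.88 in wild type, while the other 4 of 6 tested markers were not called for UV-C.

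The first question was how the mitochondrial RNA in these libraries differed after UV-C. Mitochondrion-encoded genes took 0.448% ± 0.0422 of counted reads in UV-C treated jac1 and 0.00516% ± 0.000903 in non-treated jac1 (SD, n = 3 each), a ratio of 86.9. In wild type the shares were 0.483% ± 0.0668 after UV-C and 0.00695% ± 0.000429 without it (SD, n = 3 each), a ratio of 69.4. The ranges with and without UV-C were separate in both genotypes, and the exact two-sided permutation test gave p = 0.1 in both, the smallest value that 3 against 3 samples allow. Without the 3 rRNA genes the ratios were 24.6 in jac1 and 18.0 in wild type.

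Chloroplast RNA and nuclear 18S rRNA, which also lack stable poly-A tails, took larger shares in the treated libraries too. Chloroplast-encoded genes took 1.93% ± 0.275 of counted reads in UV-C treated jac1 and 0.0196% ± 0.00208 in non-treated jac1, and 2.06% ± 0.252 in UV-C treated and 0.0183% ± 0.00170 in non-treated wild type (SD, n = 3 each). A nuclear 18S rRNA gene, AT3G41768, took 1.92% ± 0.0787 in UV-C treated and 0.00710% ± 0.00198 in non-treated jac1, and 2.44% ± 0.107 in UV-C treated and 0.00992% ± 0.00117 in non-treated wild type. Other nuclear rRNA loci held few reads. A further 18S locus, AT2G01010, had 358 to 505 reads in UV-C treated and 0 to 3 in non-treated jac1, and 467 to 583 in UV-C treated and 3 to 4 in non-treated wild type. The 25S locus AT2G01020 had 115 to 144 reads in UV-C treated and 13 to 20 in non-treated jac1, and 65 to 89 in UV-C treated and 13 to 21 in non-treated wild type. The 5.8S locus AT3G41979 had no reads. Nuclear snoRNA and snRNA, which were also listed here as RNA without poly-A tails, differed far less. The 286 nuclear snoRNA genes took 0.00416% ± 0.000333 and 0.00470% ± 0.000532 in jac1 and 0.00745% ± 0.00118 and 0.00501% ± 0.000398 in wild type, treated before non-treated. The 81 nuclear snRNA genes took 0.00131% ± 0.000252 and 0.000539% ± 0.000107 in jac1 and 0.00208% ± 0.000374 and 0.000678% ± 0.0000590 in wild type in the same order. A change in mitochondrial RNA, in its tails or in the carry-over of RNA without tails cannot be told apart in these libraries.

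**Figure D2:**
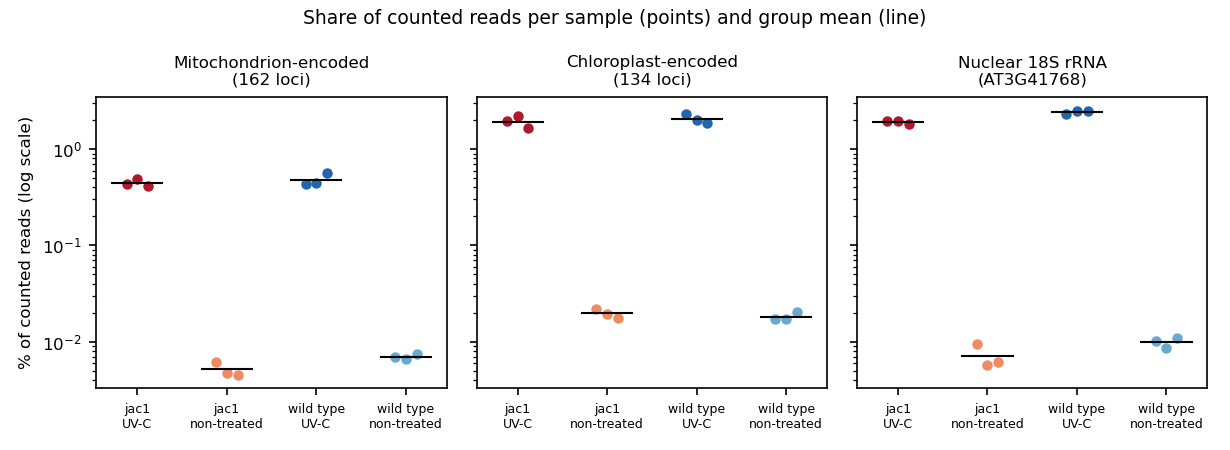
Share of counted reads (%, log scale) on mitochondrion-encoded genes, chloroplast-encoded genes and the nuclear 18S rRNA gene AT3G41768 in each sample (points), with the mean of each group (line). In all 3 panels the UV-C treated samples of each genotype lie above its non-treated samples, with no overlap.

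Gene by gene, every one of the 49 tested loci had a positive log2 FC for UV-C in both genotypes (edgeR quasi-likelihood test, called at a false discovery rate under 0.01 and a log2 FC beyond 1). At some loci with few reads, such as ATMG00040 in jac1 and ATMG01370 in wild type, the raw counts were not clearly higher after UV-C. There the positive sign rests on the scaling of the libraries. In jac1, 43 of 49 rose and none fell, against 9.39% of all 21281 genes tested called higher and 5.09% called lower. In wild type, 38 of 49 rose and none fell, against 7.69% called higher and 2.37% called lower. In either direction, 14.5% of all genes were called in jac1 and 10.1% in wild type. The median log2 FC of the 49 was 3.84 in jac1 and 3.24 in wild type, where the medians over all genes were 0.042 and 0.00063 in that order. A locus could pass the read filter through the treated samples alone, so these counts and medians describe the loci and do not stand as a test of them. The 2 treatments did not overlap at 48 loci in jac1 and 44 in wild type, against 63.9% and 57.8% of all genes. At 16 loci in jac1 and 10 in wild type, no non-treated sample had more than 3 reads, and with those set to a floor of 3 reads per sample the medians were 2.88 and 2.55.

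The ribosomal RNA genes differed widely among themselves. rrn26 (ATMG00020), the large subunit rRNA, and rrn18 (ATMG01390), the small subunit rRNA, had the largest log2 FC of all loci with more than 3 reads in a non-treated sample, in both genotypes. rrn26 had 3383, 3729 and 3138 CPM in UV-C treated jac1, against 22.4, 16.5 and 14.7 CPM in non-treated jac1. For rrn26, the values were 2807, 2936 and 3704 CPM in UV-C treated wild type, against 21.7, 21.5 and 25.3 CPM in the non-treated samples. rrn26 had a log2 FC of 7.58 ± 0.18 (adjusted p = 7.2e-13) in jac1 and 7.11 ± 0.18 (adjusted p = 1.2e-12) in wild type. rrn26 had the highest CPM of all mitochondrial loci in every group, without correction for length. rrn18 had 1569, 1706 and 1421 CPM in UV-C treated jac1, against 17.5, 13.4 and 11.7 CPM in non-treated jac1. For rrn18, the values were 1285, 1335 and 1736 CPM in UV-C treated wild type, against 17.1, 16.6 and 19.7 CPM in the non-treated samples. rrn18 had a log2 FC of 6.78 ± 0.17 (adjusted p = 1.5e-12) in jac1 and 6.35 ± 0.17 (adjusted p = 2.0e-12) in wild type. The treated samples stood far above the non-treated ones in every case. rrn5 (ATMG01380), the 5S rRNA, lies 170 bases from rrn18 on the same strand and rose much less. rrn5 had 1.15, 1.05 and 1.13 CPM in UV-C treated jac1, against 0.347, 0.470 and 0.354 CPM in non-treated jac1. For rrn5, the values were 1.55, 1.74 and 2.83 CPM in UV-C treated wild type, against 0.623, 0.544 and 0.874 CPM in the non-treated samples. rrn5 had a log2 FC of 1.503 ± 0.32 (adjusted p = 9.6e-04) in jac1 and 1.57 ± 0.27 (adjusted p = 2.7e-04) in wild type. Its groups did not overlap within either genotype, although the raw counts were close, with 25, 19 and 23 reads in treated and 15, 18 and 13 in non-treated jac1, and 36, 41 and 56 in treated and 30, 24 and 35 in non-treated wild type. Its result therefore rests on the scaling of the libraries more than those of rrn26 and rrn18. rrn18 had 1253 to 1632 reads for each rrn5 read in UV-C treated jac1 and 28.6 to 50.4 in non-treated jac1, and 614 to 831 in UV-C treated and 22.5 to 30.5 in non-treated wild type.

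The ratio of rrn26 to rrn18 reads also separated the groups, at 2.16 to 2.21 in UV-C treated and 1.23 to 1.28 in non-treated jac1, and 2.13 to 2.20 in UV-C treated and 1.27 to 1.30 in non-treated wild type. ATMG00030, a locus without a name here, had the next largest log2 FC. ATMG00030 had 204, 238 and 200.2 CPM in UV-C treated jac1, against 2.92, 1.65 and 1.96 CPM in non-treated jac1. For ATMG00030, the values were 171, 172 and 221 CPM in UV-C treated wild type, against 3.03, 2.72 and 2.70 CPM in the non-treated samples. ATMG00030 had a log2 FC of 6.60 ± 0.17 (adjusted p = 1.7e-12) in jac1 and 6.05 ± 0.16 (adjusted p = 2.2e-12) in wild type. It lies 502 bases from rrn26 on the opposite strand. The RefSeq rrn26 has 3169 bases, 601 more than the 2568 of the count table, and the default counting settings do not use strand, so reads of the 2 loci cannot be kept apart with certainty. The ratio of rrn26 to ATMG00030 reads was 15.7 to 16.6 in UV-C treated and 7.50 to 10.05 in non-treated jac1, and 16.4 to 17.1 in UV-C treated and 7.15 to 9.37 in non-treated wild type.

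**Figure D3:**
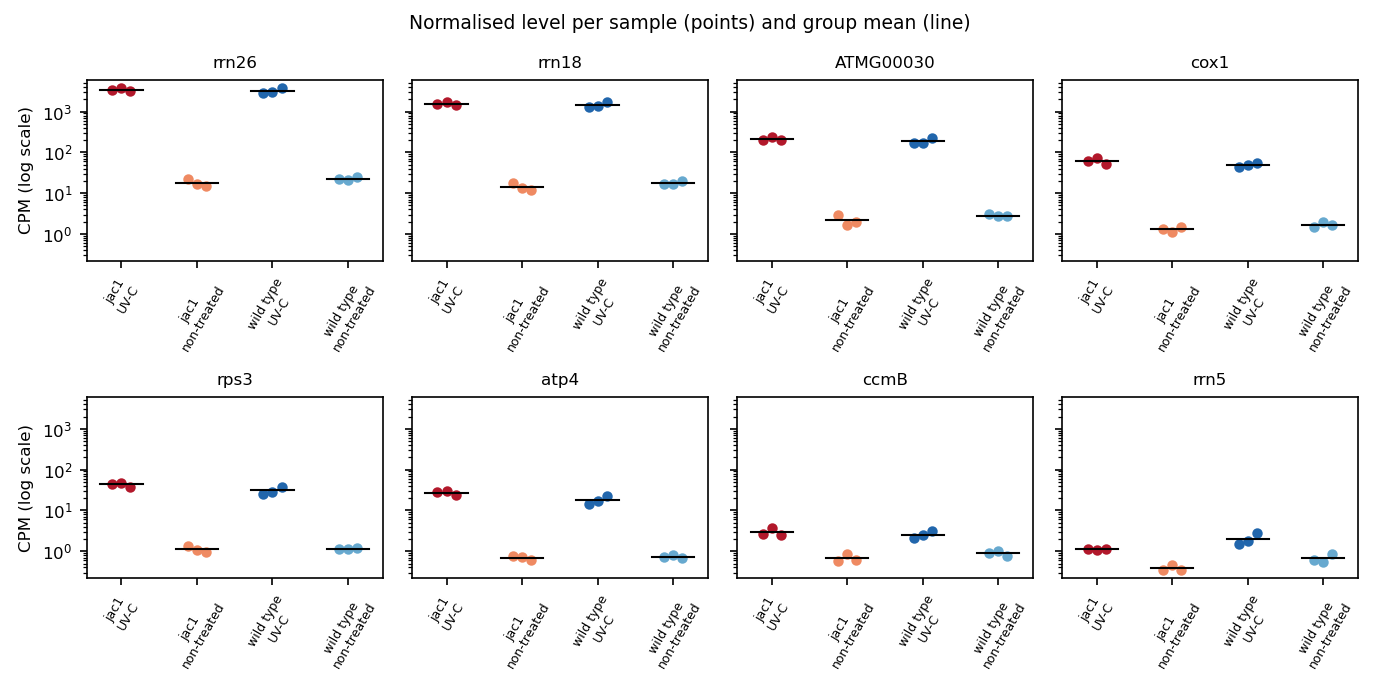
CPM (log scale) of 8 mitochondrial loci in each sample (points), with the mean of each group (line). Treated samples lie above the non-treated samples of their genotype in every panel, by the largest distance for rrn26 and rrn18 and by the smallest for ccmB and rrn5.

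Complex I, the NADH dehydrogenase of the respiratory chain, was represented by 14 loci, of which 11 passed the read filter; nad1, nad2 and nad5 are each split over several loci, whose transcripts are joined by trans-splicing. Of the 11, 10 rose in jac1 and 10 in wild type, where 9.39% and 7.69% of all genes tested were called higher. Their medians were 5.27 in jac1 and 4.597 in wild type on the log2 scale. In each genotype 4 of the 11 had a non-treated group at 3 reads or fewer, and with these set to the floor of 3 reads per sample the medians were 4.56 in jac1 and 4.30 in wild type. nad4 (ATMG00580), with 0 to 12 reads per sample, was called in neither genotype. The 3 with the most reads were a nad5 locus (ATMG00060), nad9 (ATMG00070) and nad4L (ATMG00650). nad5 (ATMG00060) had 18.8, 20.1 and 15.5 CPM in UV-C treated jac1, against 0.370, 0.601 and 0.354 CPM in non-treated jac1. For nad5 (ATMG00060), the values were 11.3, 14.3 and 15.7 CPM in UV-C treated wild type, against 0.312, 0.363 and 0.375 CPM in the non-treated samples. nad5 (ATMG00060) had a log2 FC of 5.35 ± 0.19 (adjusted p = 3.9e-11) in jac1 and 5.29 ± 0.20 (adjusted p = 7.0e-11) in wild type. nad9 encodes a subunit of the arm of complex I that lies in the matrix. nad9 had 15.2, 17.9 and 14.1 CPM in UV-C treated jac1, against 0.671, 0.418 and 0.572 CPM in non-treated jac1. For nad9, the values were 10.5, 11.6 and 12.4 CPM in UV-C treated wild type, against 0.540, 0.431 and 0.425 CPM in the non-treated samples. nad9 had a log2 FC of 4.81 ± 0.16 (adjusted p = 2.2e-11) in jac1 and 4.61 ± 0.17 (adjusted p = 4.9e-11) in wild type. nad4L encodes a small subunit of the membrane arm. nad4L had 8.82, 9.19 and 6.91 CPM in UV-C treated jac1, against 0.301, 0.366 and 0.218 CPM in non-treated jac1. For nad4L, the values were 5.28, 5.85 and 7.38 CPM in UV-C treated wild type, against 0.270, 0.295 and 0.175 CPM in the non-treated samples. nad4L had a log2 FC of 4.79 ± 0.23 (adjusted p = 7.7e-10) in jac1 and 4.61 ± 0.23 (adjusted p = 1.9e-09) in wild type. In all 3, the lowest treated sample was many times the highest non-treated one. nad7 (ATMG00510), of which 9.31% of the windows are unique, was among the 5 largest log2 FC in jac1. nad7 had 6.89, 8.53 and 5.47 CPM in UV-C treated jac1, against 0.116, 0.0783 and 0.136 CPM in non-treated jac1. For nad7, the values were 4.81, 4.11 and 5.10 CPM in UV-C treated wild type, against 0.145, 0.249 and 0.175 CPM in the non-treated samples. nad7 had a log2 FC of 5.93 ± 0.27 (adjusted p = 5.5e-10) in jac1 and 4.597 ± 0.25 (adjusted p = 4.2e-09) in wild type. The nad2 locus ATMG00285 had no read in any non-treated sample, and 21, 18 and 12 reads in UV-C treated jac1 and 14, 14 and 8 in UV-C treated wild type, so no fold change is given.

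Of complex IV, cytochrome c oxidase, cox1 (ATMG01360) and cox2 (ATMG00160) could be tested and both rose in both genotypes. cox1 had 62.2, 71.5 and 52.2 CPM in UV-C treated jac1, against 1.32, 1.15 and 1.44 CPM in non-treated jac1. For cox1, the values were 43.4, 50.4 and 53.8 CPM in UV-C treated wild type, against 1.45, 2.02 and 1.65 CPM in the non-treated samples. cox1 had a log2 FC of 5.57 ± 0.15 (adjusted p = 2.7e-12) in jac1 and 4.85 ± 0.14 (adjusted p = 6.0e-12) in wild type. cox1 had the most reads of the named protein-coding loci, and all of its windows are unique. cox2 had 11.5, 11.4 and 9.37 CPM in UV-C treated jac1, against 0.671, 0.418 and 0.926 CPM in non-treated jac1. For cox2, the values were 9.41, 11.7 and 11.1 CPM in UV-C treated wild type, against 0.893, 0.929 and 0.649 CPM in the non-treated samples. cox2 had a log2 FC of 4.0 ± 0.21 (adjusted p = 1.7e-09) in jac1 and 3.69 ± 0.20 (adjusted p = 3.2e-09) in wild type. The groups did not overlap for either gene within a genotype.

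Of the 7 loci listed for ATP synthase, which makes ATP from the proton gradient, 3 were tested. atp4 (ATMG00640), a subunit of the membrane-bound part, rose in both genotypes. atp4 had 27.9, 30.3 and 24.2 CPM in UV-C treated jac1, against 0.764, 0.731 and 0.599 CPM in non-treated jac1. For atp4, the values were 14.7, 17.5 and 22.6 CPM in UV-C treated wild type, against 0.727, 0.793 and 0.699 CPM in the non-treated samples. atp4 had a log2 FC of 5.28 ± 0.18 (adjusted p = 1.9e-11) in jac1 and 4.61 ± 0.18 (adjusted p = 8.2e-11) in wild type. atp6 (ATMG01170), the proton channel subunit, is present as a pair of near-identical loci, and ATMG00410, the other, had no reads, so their counts are uncertain. atp6 (ATMG01170) had 5.70, 3.58 and 3.40 CPM in UV-C treated jac1, against 0.717, 0.548 and 0.518 CPM in non-treated jac1. For atp6 (ATMG01170), the values were 4.55, 5.85 and 3.54 CPM in UV-C treated wild type, against 1.04, 0.635 and 0.699 CPM in the non-treated samples. atp6 (ATMG01170) had a log2 FC of 2.82 ± 0.28 (adjusted p = 1.4e-06) in jac1 and 2.55 ± 0.27 (adjusted p = 3.4e-06) in wild type. ATMG00040, a locus of the list with few reads, was called higher in wild type and not in jac1. It had no match in the RefSeq annotation, so its role is taken from the list alone. ATMG00040 had 4, 6 and 3 reads in UV-C treated jac1, against 5, 4 and 5 in non-treated jac1. In wild type, ATMG00040 had 7, 8 and 14 reads after UV-C, against 4, 6 and 3 without it. ATMG00040 had a log2 FC of 0.85 ± 0.54 (adjusted p = 0.19) in jac1 and 2.12 ± 0.47 (adjusted p = 0.0020) in wild type. The difference between these 2 responses did not pass the test of the interaction, which gave a log2 FC of -1.27 ± 0.73 (adjusted p = 0.23). Its call in wild type was lost without wild-type UV-C replicate 3, with a log2 FC of 1.67 (adjusted p = 0.015).

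Among the 5 genes of cytochrome c maturation, which attach haem to the c-type cytochromes, ccmB (ATMG00110) was tested and rose in both genotypes by a smaller log2 FC than cox1, atp4 or nad9. ccmB had 2.71, 3.69 and 2.52 CPM in UV-C treated jac1, against 0.578, 0.836 and 0.599 CPM in non-treated jac1. For ccmB, the values were 2.06, 2.46 and 3.13 CPM in UV-C treated wild type, against 0.893, 1.02 and 0.749 CPM in the non-treated samples. ccmB had a log2 FC of 2.14 ± 0.24 (adjusted p = 4.1e-06) in jac1 and 1.51 ± 0.23 (adjusted p = 1.1e-04) in wild type. The treated samples all lay above the non-treated ones in both genotypes. Its windows are all unique, as are those of cox1, atp4 and nad9.

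Of 7 mitochondrial genes for ribosomal proteins, 3 were tested and all rose in both genotypes: rps3 (ATMG00090) of the small subunit, and rpl16 (ATMG00080) and rpl2 (ATMG00560) of the large subunit. rps3 and rpl16 overlap by 134 bases on one strand, and the default counting settings leave out reads over that overlap. rps3 had 45.3, 47.0 and 38.4 CPM in UV-C treated jac1, against 1.32, 1.10 and 0.953 CPM in non-treated jac1. For rps3, the values were 25.1, 29.02 and 38.3 CPM in UV-C treated wild type, against 1.16, 1.13 and 1.199 CPM in the non-treated samples. rps3 had a log2 FC of 5.26 ± 0.17 (adjusted p = 1.5e-11) in jac1 and 4.72 ± 0.17 (adjusted p = 4.4e-11) in wild type. Among the named protein-coding loci, rps3 came after cox1 in total reads. rpl16 had 19.7, 21.5 and 17.9 CPM in UV-C treated jac1, against 0.694, 0.261 and 0.463 CPM in non-treated jac1. For rpl16, the values were 11.6, 11.7 and 15.8 CPM in UV-C treated wild type, against 0.561, 0.725 and 0.574 CPM in the non-treated samples. rpl16 had a log2 FC of 5.34 ± 0.22 (adjusted p = 1.4e-10) in jac1 and 4.38 ± 0.21 (adjusted p = 9.1e-10) in wild type. Both had groups that lay far apart. rpl2 had 51, 43 and 65 reads in UV-C treated jac1, against 3, 2 and 1 in non-treated jac1. In wild type, rpl2 had 35, 41 and 49 reads after UV-C, against 5, 3 and 7 without it. In jac1 the non-treated samples were at the floor, so only the wild-type log2 FC of rpl2 is given, 4.01 ± 0.35 (adjusted p = 5.2e-07).

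matR (ATMG00520), a maturase of group II intron splicing, and mttB (ATMG00570), a membrane protein of the twin-arginine transport family, completed the named loci. matR had 40, 32 and 33 reads in UV-C treated jac1, against 1, 7 and 1 in non-treated jac1. In wild type, matR had 22, 29 and 26 reads after UV-C, against 4, 3 and 2 without it. matR had a log2 FC of 4.44 ± 0.44 (adjusted p = 1.2e-06) in jac1 and 4.02 ± 0.46 (adjusted p = 8.0e-06) in wild type. mttB had 8, 12 and 5 reads in UV-C treated jac1, against 0, 2 and 1 in non-treated jac1. In wild type, mttB had 11, 5 and 12 reads after UV-C, against 1, 0 and 2 without it. Both were called higher in both genotypes, but for mttB no non-treated sample had more than 2 reads, so no fold change is given.

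Outside these lists, 24 tested loci had neither a role nor a name. They contained 20 loci called higher in jac1 and 14 in wild type, against 9.39% and 7.69% of all genes tested. Their median log2 FC was 2.83 in jac1 and 2.14 in wild type. Of the 24, 10 in jac1 and 5 in wild type had a non-treated group at the floor, and with these at their bound the medians were 2.16 and 1.80. After ATMG00030, those with the most reads were ATMG00660 and ATMG01130. ATMG00660 had 9.65, 10.12 and 8.24 CPM in UV-C treated jac1, against 1.30, 1.46 and 1.04 CPM in non-treated jac1. For ATMG00660, the values were 6.23, 6.19 and 10.5 CPM in UV-C treated wild type, against 1.45, 1.75 and 1.25 CPM in the non-treated samples. ATMG00660 had a log2 FC of 2.88 ± 0.22 (adjusted p = 9.6e-08) in jac1 and 2.35 ± 0.21 (adjusted p = 9.0e-07) in wild type. The treated samples lay above the non-treated ones in both genotypes. ATMG01130 had 8.82, 11.9 and 7.74 CPM in UV-C treated jac1, against 0.162, 0.131 and 0.327 CPM in non-treated jac1. For ATMG01130, the values were 5.11, 7.76 and 9.10 CPM in UV-C treated wild type, against 0.436, 0.499 and 0.449 CPM in the non-treated samples. ATMG01130 had a log2 FC of 5.51 ± 0.31 (adjusted p = 4.6e-09) in jac1 and 3.97 ± 0.27 (adjusted p = 4.7e-08) in wild type. ATMG00660 lies beside the 22-base nad5 locus ATMG00665, and ATMG01130 lies 113 bases from the nad1 locus ATMG01120, each pair on one strand. The 5 smallest log2 FC in wild type belonged to ATMG00150, ATMG00130, ATMG01090, ATMG01410 and ATMG01370, and the 5 smallest in jac1 to rrn5, ATMG00150, ATMG01370, ATMG01410 and ATMG00040.

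ATMG01370 lies 9 bases from rrn5 on the same strand, on the side away from rrn18, from which it is 297 bases distant. ATMG01370 had 23, 22 and 21 reads in UV-C treated jac1, against 14, 15 and 18 in non-treated jac1. In wild type, ATMG01370 had 19, 45 and 19 reads after UV-C, against 42, 23 and 24 without it. ATMG01370 had a log2 FC of 1.45 ± 0.36 (adjusted p = 0.0032) in jac1 and 0.88 ± 0.32 (adjusted p = 0.036) in wild type. It was called higher in jac1 and not in wild type, where the groups overlapped. ATMG01090 had 23, 14 and 8 reads in UV-C treated jac1, against 4, 3 and 2 in non-treated jac1. In wild type, ATMG01090 had 10, 10 and 21 reads after UV-C, against 15, 5 and 13 without it. ATMG01090 had a log2 FC of 3.23 ± 0.60 (adjusted p = 3.4e-04) in jac1 and 1.31 ± 0.49 (adjusted p = 0.040) in wild type. ATMG01090 was likewise called in jac1 alone, and the interaction, 1.92 ± 0.80 (adjusted p = 0.099), did not pass. ATMG01410 had 6, 6 and 6 reads in UV-C treated jac1, against 5, 4 and 5 in non-treated jac1. In wild type, ATMG01410 had 5, 14 and 7 reads after UV-C, against 8, 8 and 6 without it. ATMG01410 had a log2 FC of 1.31 ± 0.46 (adjusted p = 0.025) in jac1 and 1.21 ± 0.40 (adjusted p = 0.023) in wild type. ATMG01410 was called in neither genotype. ATMG00130 had 6, 10 and 5 reads in UV-C treated jac1, against 2, 5 and 4 in non-treated jac1. In wild type, ATMG00130 had 6, 8 and 6 reads after UV-C, against 3, 6 and 6 without it. ATMG00130 had a log2 FC of 1.87 ± 0.52 (adjusted p = 0.0067) in jac1 and 1.37 ± 0.50 (adjusted p = 0.036) in wild type. ATMG00130 passed in jac1 alone and lost that call when any of 5 single samples was left out, 4 of jac1 and wild-type UV-C replicate 1, with adjusted p between 0.010 and 0.047. ATMG00150 had 4, 8 and 1 reads in UV-C treated jac1, against 4, 2 and 3 in non-treated jac1. In wild type, ATMG00150 had 3, 6 and 7 reads after UV-C, against 5, 2 and 5 without it. ATMG00150 had a log2 FC of 1.47 ± 0.70 (adjusted p = 0.087) in jac1 and 1.37 ± 0.64 (adjusted p = 0.092) in wild type. ATMG00150 was called in neither genotype.

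**Figure D4:**
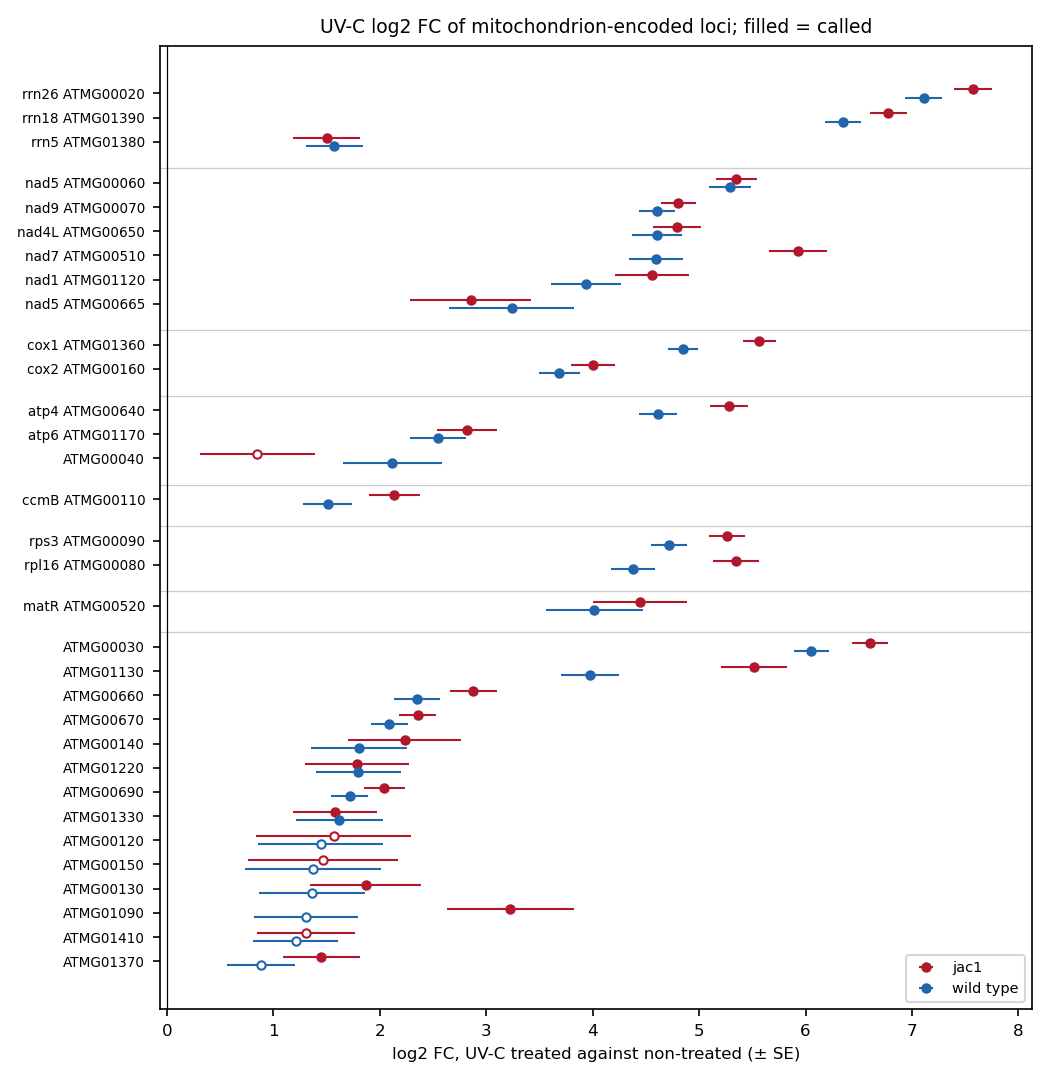
Log2 FC for UV-C (± SE) in jac1 and wild type for the 32 mitochondrial loci with more than 3 reads in a non-treated sample of each genotype, grouped by role; filled points were called at a false discovery rate under 0.01 and a log2 FC beyond 1. rrn26 and rrn18 lie above 6, most respiratory and ribosomal protein genes between 3.5 and 6, and rrn5, ccmB and most loci without a name under 3.

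Because the members rose by different amounts, the make-up of the mitochondrial reads differed between treatments. This measure does not depend on the scaling between libraries. rrn26 took 62.4% ± 0.290 of the mitochondrion-encoded reads in UV-C treated and 37.4% ± 2.35 in non-treated jac1, and 63.0% ± 0.249 in UV-C treated and 38.2% ± 1.28 in non-treated wild type (SD, n = 3 each). For rrn18 the shares were close between treatments, at 28.6% ± 0.217 and 29.8% ± 1.59 in jac1, and 28.98% ± 0.371 and 29.7% ± 1.0 in wild type, treated before non-treated. The remaining classes were smaller. Named protein genes took 4.31% ± 0.194 in UV-C treated and 15.97% ± 1.49 in non-treated jac1, and 3.58% ± 0.226 in UV-C treated and 14.7% ± 1.69 in non-treated wild type. rrn5 took 0.0204% ± 0.00267 in UV-C treated and 0.840% ± 0.216 in non-treated jac1, and 0.0400% ± 0.00694 in UV-C treated and 1.13% ± 0.217 in non-treated wild type. All other loci, apart from ATMG00030, took 0.713% ± 0.0161 in UV-C treated and 11.5% ± 2.63 in non-treated jac1. In wild type they took 0.683% ± 0.0707 in UV-C treated and 11.6% ± 0.553 in non-treated samples. For rrn26, rrn5, the named protein genes and all other loci no treated sample overlapped a non-treated one. The share of the named protein genes was lower in the treated samples although 21 of the named protein loci were tested and most were called higher.

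**Figure D5:**
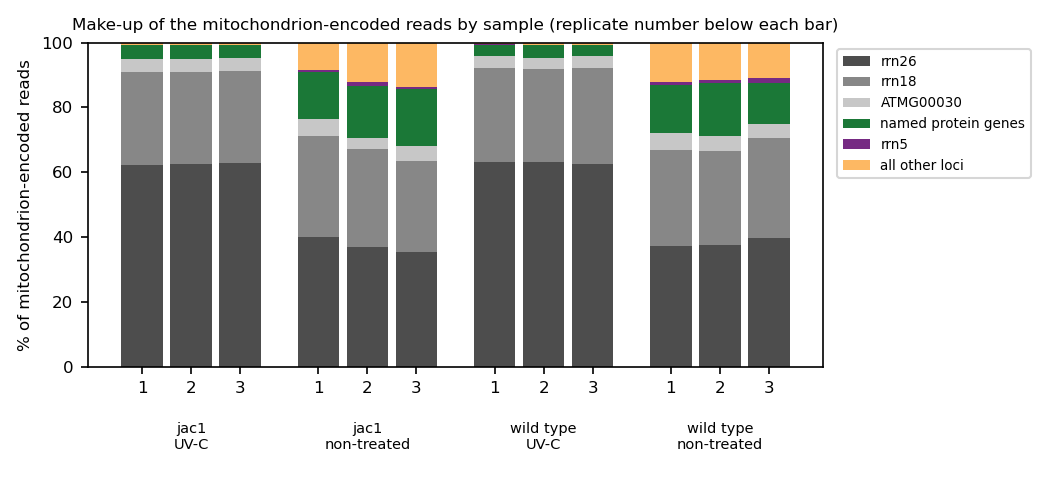
Share of the mitochondrion-encoded reads (%) on rrn26, rrn18, ATMG00030, named protein genes, rrn5 and all other loci, as stacked bars with 1 bar for each sample. rrn26 fills a mean of 62.4% in UV-C treated and 37.4% in non-treated jac1, and of 63.0% in UV-C treated and 38.2% in non-treated wild type.

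Set per kilobase of locus, the order of levels differed between treatments. In UV-C treated wild type rrn26 stood first at 1226 ± 189 CPM per kb, followed by rrn18 at 750.3 ± 128 and ATMG00030 at 579 ± 88.2. The next loci, atp4 at 31.6 ± 6.88 and cox1 at 31.1 ± 3.33 CPM per kb, did not differ beyond their spread. In non-treated wild type rrn18 at 9.19 ± 0.860, rrn26 at 8.88 ± 0.829 and ATMG00030 at 8.69 ± 0.579 CPM per kb were within their spread of each other. rrn5 followed at 5.77 ± 1.46 and ATMG00660 at 3.29 ± 0.554 CPM per kb (SD, n = 3 each). The part of unique windows in this order was not tested.

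The second question was whether jac1 differed from wild type. After UV-C, none of the 49 loci was called between jac1 and wild type, where 2.43% of all genes were called higher and 1.7% lower, 4.13% in all. At an unadjusted p under 0.05 there were 10 loci, and DESeq2 and the edgeR likelihood ratio test also called none. The share of all genes at that p was not counted, here or below, so such counts are a description only. The genotypes did not overlap at 9 of the 49 loci, against 49.5% of all genes. The median log2 FC was 0.22, against -0.016 over all genes. The smallest p-values belonged to atp4, rps3 and rpl16. atp4 averaged 27.5 ± 3.10 CPM in jac1 and 18.3 ± 3.98 CPM in wild type (SD, n = 3 each), a log2 FC of 0.59 ± 0.13 (adjusted p = 0.0023). rps3 averaged 43.6 ± 4.56 CPM in jac1 and 30.8 ± 6.79 CPM in wild type, a log2 FC of 0.50 ± 0.12 (adjusted p = 0.0054). rpl16 averaged 19.7 ± 1.83 CPM in jac1 and 13.01 ± 2.39 CPM in wild type, with a log2 FC of 0.60 ± 0.15 (adjusted p = 0.0066). Their adjusted p-values were under 0.01, but the differences were smaller than the log2 FC of 1 required for a call. rrn26 had a log2 FC of 0.12 ± 0.13 (adjusted p = 0.51) and rrn18 of 0.11 ± 0.13 (adjusted p = 0.54). The log2 FC of rrn5 was -0.86 ± 0.28 (adjusted p = 0.023), and its groups did not overlap.

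Without UV-C, none of the 49 loci was called in either direction, against 1.03% of all genes called higher and 0.912% called lower in jac1, 1.95% in all. An unadjusted p under 0.05 was found for 6 loci, and neither of the other tools called any. The genotypes did not overlap at 8 of the 49 loci, against 35.2% of all genes. The median log2 FC was -0.35, with 33 loci below 0 and 15 above, and -0.011 over all genes. The smallest p-values were those of ATMG00690, ATMG01130 and ATMG01090. ATMG00690 had 0.717, 0.679 and 0.926 CPM in jac1, against 1.16, 1.09 and 1.30 CPM in wild type, a log2 FC of -0.61 ± 0.20 (adjusted p = 0.048). The groups did not overlap, but the difference missed the required size. rrn26 averaged 17.9 ± 3.99 CPM in jac1 and 22.8 ± 2.13 CPM in wild type, with a log2 FC of -0.35 ± 0.14 (adjusted p = 0.12), and jac1 replicate 1 lay within the wild-type range. The log2 FC of rrn5 was -0.79 ± 0.30 (adjusted p = 0.097), and its groups did not overlap.

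The interaction, which asks whether the response to UV-C differed between the genotypes, called none of the 49 loci, where 3.81% of all genes were called, 2.07% with a larger log2 FC in jac1. It gave 11 loci at an unadjusted p under 0.05 and a median of 0.43, against 0.0013 over all genes. These values include loci with a non-treated group at the floor, 16 in jac1 and 10 in wild type, where fold changes are not defined. No median with those loci at a bound was computed for the interaction. The value was positive, that is a larger log2 FC in jac1, at 40 of 49 loci. With library size alone as the scaling it was positive at 33, with a median of 0.295, against -0.136 over all genes. The interaction also takes in the non-treated difference between the genotypes, which had a median log2 FC of -0.35. The loci are not replicates, so these numbers are a description only. ATMG01130 came closest. Its log2 FC for UV-C was larger in jac1 by 1.54 ± 0.48 (adjusted p = 0.032), and its lower non-treated level in jac1 is visible in the values above. ATMG01130 was called by DESeq2, with a log2 FC of 1.51 (adjusted p = 0.0081), and by the edgeR likelihood ratio test, with 1.53 (adjusted p = 0.0033), and the likelihood ratio test also called rpl16, with 1.03 (adjusted p = 0.0067). cox1 followed, with an interaction of 0.72 ± 0.23 (adjusted p = 0.035).

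Nuclear genes within the chromosome 2 copy of the mitochondrial genome also had higher counts after UV-C. Of all genes tested, 9.39% were called higher after UV-C in jac1 and 7.69% in wild type. Of the 159 genes that lie in the stretch, 26 were tested, and 21 rose in jac1 and 19 in wild type, with none called lower. Their median log2 FC was 3.50 in jac1 and 2.496 in wild type. Non-treated groups were at the floor for 15 of the 26 in jac1 and 7 in wild type, and with these at their bound the medians were 2.10 and 2.26. As with the mitochondrial loci, a gene could pass the read filter through the treated samples alone, so the counts and medians are a description only. AT2G07687, which contains the cox3 sequence shown above, had 44, 33 and 28 reads in UV-C treated and 3, 0 and 0 in non-treated jac1, and 30, 30 and 28 in UV-C treated and 2, 1 and 0 in non-treated wild type. AT2G07698 had 307, 260 and 196 reads in UV-C treated and 10, 7 and 6 in non-treated jac1, and 150, 154 and 208 in UV-C treated and 9, 5 and 10 in non-treated wild type. Whether such reads came from the nuclear or the mitochondrial copy cannot be told apart from the counts. These genes together took 0.00326% ± 0.000515 of counted reads in UV-C treated and 0.000396% ± 0.0000388 in non-treated jac1, and 0.00312% ± 0.000638 in UV-C treated and 0.000491% ± 0.0000760 in non-treated wild type (SD, n = 3 each).

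Nuclear genes for subunits of the same complexes, whose mRNAs carry poly-A tails, did not show a comparable difference. All 28 listed subunits of the respiratory chain and ATP synthase were tested. Among all genes, 9.39% were called higher after UV-C in jac1 and 7.69% in wild type. None of the 28 was called in jac1 after UV-C, and 2 were called higher in wild type, with medians of 0.066 in jac1 and 0.012 in wild type. The 2 were CYTC-2 (AT4G10040), a cytochrome c gene, at 35.4 CPM in UV-C treated and 15.04 CPM in non-treated wild type, with a log2 FC of 1.24 (adjusted p = 3.0e-08), and AT5G25450, listed for complex III, at 1.03 and 0.237 CPM in the same order. For CYTC-2 the interaction was called, at -1.35 (adjusted p = 2.9e-06). The 6 listed nuclear genes of mitochondrial transcription and RNA turnover, among them organellar RNA polymerase and exonuclease genes, were all tested and none was called, with median log2 FC of -0.40 in jac1 and -0.28 in wild type. Chloroplast-encoded genes had 88 of 91 tested called higher in jac1 and 89 in wild type, with medians of 5.99 and 5.999. The part of RNA without stable tails, of the counted totals and of the nuclear copy in the mitochondrial result was not tested.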

How the data were processed

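Poly-A selected RNA of 12 samples was sequenced from stranded libraries, 3 per group. Per the labels and the study's methods, the authors aligned reads with STAR 2.5.2b and deposited raw read counts per Araport11 gene from featureCounts (Subread 1.6.2). The study's methods name no settings for the counting. The default settings, taken to apply here, leave out reads with several places or several genes and do not use strand. Here all 37813 genes were read, and genes reaching 5 reads in 3 or more samples were tested with edgeR 4.0.16 (R 4.3.3): TMM scaling, quasi-likelihood fit, a mean per group, Benjamini-Hochberg adjustment over all genes tested, and calls at a false discovery rate under 0.01 with a log2 FC beyond 1. The study used a likelihood ratio test, tried here as an alternative beside DESeq2 1.42.0, other scalings, filters, replicate blocks and left-out samples. The tests were tried on simulated counts.

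The loci and lists were chosen with earlier results of these data known. Named were the 3 loci with the most reads in each role list and outside the lists (all tested loci of shorter lists), the 5 largest and 5 smallest log2 FC for UV-C per genotype among loci with more than 3 reads in a non-treated sample, and any locus called between genotypes. ATMG00285, ATMG00580 and the loci with the smallest p between genotypes were named after their values were seen. Library totals set the precision, and the UV-C treated libraries were the smaller ones.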

Additional observations from a re-analysis of the deposited data

How the results depend on the processing

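All 49 loci kept a positive log2 FC for UV-C in both genotypes with other scalings and tools on the same loci. The UV-C calls numbered 41 in jac1 and 37 in wild type with DESeq2, 45 and 42 with the edgeR likelihood ratio test, and 38 and 36 with library size alone. Over all 21281 genes tested, DESeq2 called 1930 higher in jac1 and 1693 in wild type, and the likelihood ratio test 2172 and 1887. The median log2 FC for UV-C depended on which loci were tested: it was 2.87 in jac1 and 2.53 in wild type with no filter (74 loci), 4.56 and 4.01 with edgeR's filterByExpr (39 loci), and 4.46 and 3.98 when only the groups compared were fitted. With a sample left out it ranged between 3.40 and 4.20 in jac1 and between 3.24 and 3.64 in wild type. With library size alone it was 3.45 in jac1 and 2.98 in wild type, where the median of all genes was -0.36 and -0.27. That scaling called 1250 genes higher and 1121 lower after UV-C in wild type, against 1637 and 505 with TMM, and 1297 and 2822 in jac1, against 1998 and 1084. Between UV-C treated jac1 and wild type it called 319 genes higher and 952 lower, against 518 and 361, gave the 49 loci a median of -0.016, and called 1 lower, rrn5, with a log2 FC of -1.10 (adjusted p = 0.0043). The interaction called 1 locus higher with DESeq2 and 1 at a false discovery rate of 0.05, ATMG01130 in both, and 2 with the likelihood ratio test. The causes were not tested beyond the change in loci or scaling itself.

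Samples with the same title number deviated together weakly or not at all. Their correlations were 0.073 to 0.23 between the non-treated genotypes and -0.098 to -0.011 between the treated ones. Between treatments they were 0.0013 to 0.13 in wild type and 0.0097 to 0.074 in jac1. Samples with different title numbers ran from -0.21 to 0.12 over these comparisons. The numbers were not taken as pairs in the main fit. With the title numbers as a replicate block 43 loci were called in jac1 and 36 in wild type, and with the numbers of the library names 36 and 32, with a median of 4.31 in jac1. Of all 21281 genes tested, the block of title numbers called 1998 higher in jac1 and 1627 in wild type, and that of library-name numbers 1739 and 1519. Over the 49 loci, the block of library-name numbers lost 8 of 43 calls in jac1 and 6 of 38 in wild type. Leaving out a sample lost up to 7 calls in jac1, without UV-C replicate 2 or non-treated replicate 1, and up to 6 in wild type, without UV-C replicate 2. Single results were followed for UV-C at those of the 26 loci named by rule with more than 3 reads in a non-treated sample. The loci with the smallest p between genotypes and in the interaction were followed in those comparisons alone. Under the alternatives, 1297 of these results kept their side of the threshold, 17 lost the call, 8 gained it and none changed direction. Counted totals limited the loci with few reads, since a non-treated group at 0 to 3 reads gives no fold change.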
